A study of Mus musculus with 16 samples.

Results

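Mitochondria are reshaped continuously by fusion, in which mitofusins join the outer membranes and Opa1 joins the inner membranes, and by fission, in which the dynamin Drp1 (gene Dnm1l) is recruited by adaptor proteins and constricts the organelle. Damaged mitochondria are removed by mitophagy, a selective autophagy that is marked by the kinase Pink1 or carried by receptors in the outer membrane such as Bnip3. In fibroblasts, as in other cells, this remodelling adjusts the mitochondrial network to nutrient supply and stress. The 10 genes described here were picked by symbol out of the 56941 genes of the count table. They are 4 fusion genes (Mfn1, Mfn2, Opa1 and Oma1, the last a protease that cleaves Opa1), 4 fission genes (Dnm1l and its adaptors Fis1, Mff and Mief1) and 2 mitophagy genes (Pink1 and Bnip3). All 10 were among the 16306 genes with enough counts to be tested.

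RNA of primary murine gingival fibroblasts (mGF), connective tissue cells grown from the gum around the upper second molar of 3 to 6 month-old wild-type C57Bl6 mice, was sequenced in bulk at passages 2 to 8. The 4 groups, of 4 libraries each, were 200 µM BSA vehicle (BSA, the control), 1 ng/mL IL-1β with that vehicle, 200 µM palmitate complexed to BSA, and the same doses of both agents (palmitate + IL-1β), each for 24 h. Palmitate is a saturated fatty acid used to model metabolic stress, IL-1β is an inflammatory cytokine, and the comparisons ask how the agents act singly and together. The labels do not say whether the 4 libraries of a group came from separate cultures or animals, so p-values measure the spread between these libraries, which may be technical. Gene counts ranged from 21234789 to 35329711 per library, apart from palmitate library 10 with 92752515. The markers fitted the cell type named: 10 fibroblast markers summed to 46375 to 57848 CPM (counts scaled to a common library size) per library, whereas 5 epithelial markers summed to at most 0.760 CPM, 4 endothelial markers to 1.60 CPM and 5 leukocyte markers to 1.68 CPM, and 4 muscle markers to between 38.2 and 46.4 CPM. Krt8, Tie1, Adgre1 and Cd3e were at 3 counts or fewer in every library. In these bulk samples, a smaller number of mitochondria or cells and less RNA per cell cannot be told apart.

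The genes lie on 7 chromosomes of the GRCm39 assembly. Mfn2, Oma1 and Pink1 lie on chromosome 4, Opa1 and Dnm1l on chromosome 16, and Mfn1, Fis1, Mff, Mief1 and Bnip3 on chromosomes 3, 5, 1, 15 and 7. The gene body of Bnip3 spans chr7:138490690-138511253 on the minus strand, that of Pink1 chr4:138039346-138053618 on the minus strand, and that of Mfn2 chr4:147955508-147989585 on the minus strand. The 250 bases before the annotated start of each of these are shown because they are the genes whose levels moved furthest under palmitate + IL-1β, Bnip3 upward and Mfn2 and Pink1 downward. They are read 5′ to 3′ on the gene's own strand, from chr7:138511254-138511503, chr4:138053619-138053868 and chr4:147989586-147989835. Capitals mark the hypoxia response cores ACGTG and GCGTG on either strand, the short letters that hypoxia-inducible factors are known to bind.
Bnip3: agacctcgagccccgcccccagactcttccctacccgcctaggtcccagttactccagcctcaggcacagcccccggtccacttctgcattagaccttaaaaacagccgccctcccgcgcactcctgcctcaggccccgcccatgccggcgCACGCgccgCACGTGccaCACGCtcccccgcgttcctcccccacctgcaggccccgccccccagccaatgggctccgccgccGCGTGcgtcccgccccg
Pink1: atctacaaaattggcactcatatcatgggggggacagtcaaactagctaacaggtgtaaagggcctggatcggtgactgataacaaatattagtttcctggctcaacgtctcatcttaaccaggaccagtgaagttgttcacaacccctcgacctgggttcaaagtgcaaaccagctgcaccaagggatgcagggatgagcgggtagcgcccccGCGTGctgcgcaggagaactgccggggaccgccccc
Mfn2: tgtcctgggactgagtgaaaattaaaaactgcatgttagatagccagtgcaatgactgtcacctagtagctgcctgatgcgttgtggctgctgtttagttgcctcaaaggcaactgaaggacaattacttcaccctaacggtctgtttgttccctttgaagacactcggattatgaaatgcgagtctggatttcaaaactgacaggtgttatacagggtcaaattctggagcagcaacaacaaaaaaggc

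The Bnip3 stretch held 72.4% G and C, against 54.4% in Pink1 and 44.0% in Mfn2. In windows of 300 bases (250 before the start and 50 after it, both strands searched), Bnip3 was the 1 gene of the 10 with ACGTG, which overlaps its own reverse complement there in a palindrome that begins 90 bases before the start. ACGTG was present in 25.7% of the 12901 promoters of protein-coding genes tested and in 20.7% of all 21757 protein-coding promoters. GCGTG was present in 4 of the 10 (Mfn2, Dnm1l, Pink1 and Bnip3), against 48.7% of promoters tested. The consensus of NRF1, a factor named for nuclear genes of the respiratory chain, was found in 3 of the 10, Opa1, Pink1 and Bnip3, against 9.07% of promoters tested, and in Bnip3 it overlapped a GCGTG core. The antioxidant response letters TGACNNNGC (13.4% of promoters tested) and the ATF4/CHOP composite TGATGNAA (2.43%) were in none of the 10 windows. A loose form of the NF-kB site was in 7 of the 10, against 63.5%. These matches describe letters in a window and do not show that a factor binds there.

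Levels between genes were compared as CPM per kilobase of exon, since long genes collect more reads. The length was that of all annotated exons of a gene joined, which exceeds the main transcript unequally. It was 3113 against 786 bases for Fis1 and 10556 against 4682 for Mfn2. The order of the genes and the gaps between them depend on that length, and the main transcripts could give another order. In BSA, Dnm1l (14.3 ± 0.334, SD, n = 4) and Mfn2 (14.2 ± 0.458) stood highest and their libraries overlapped. Bnip3 followed at 12.9 ± 0.398, Pink1 at 10.8 ± 0.249 and Opa1 at 10.0 ± 0.263 CPM per kilobase, and none of these neighbours overlapped. Fis1 (7.72 ± 0.597), Mff (5.51 ± 0.254), Mfn1 (4.41 ± 0.145), Mief1 (3.04 ± 0.161) and Oma1 (1.12 ± 0.0550) completed the order, each without overlap with the next. Thus resting mGF held more Mfn2 than Mfn1 RNA per length of annotated exon, and among the fission adaptors Fis1 was above Mff and Mief1. The lowest raw count of any of the 10 genes in a library was 226, for Oma1, so none was near the counting floor. All further levels are CPM, and all differences are log2 fold changes.

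**Figure D1:**
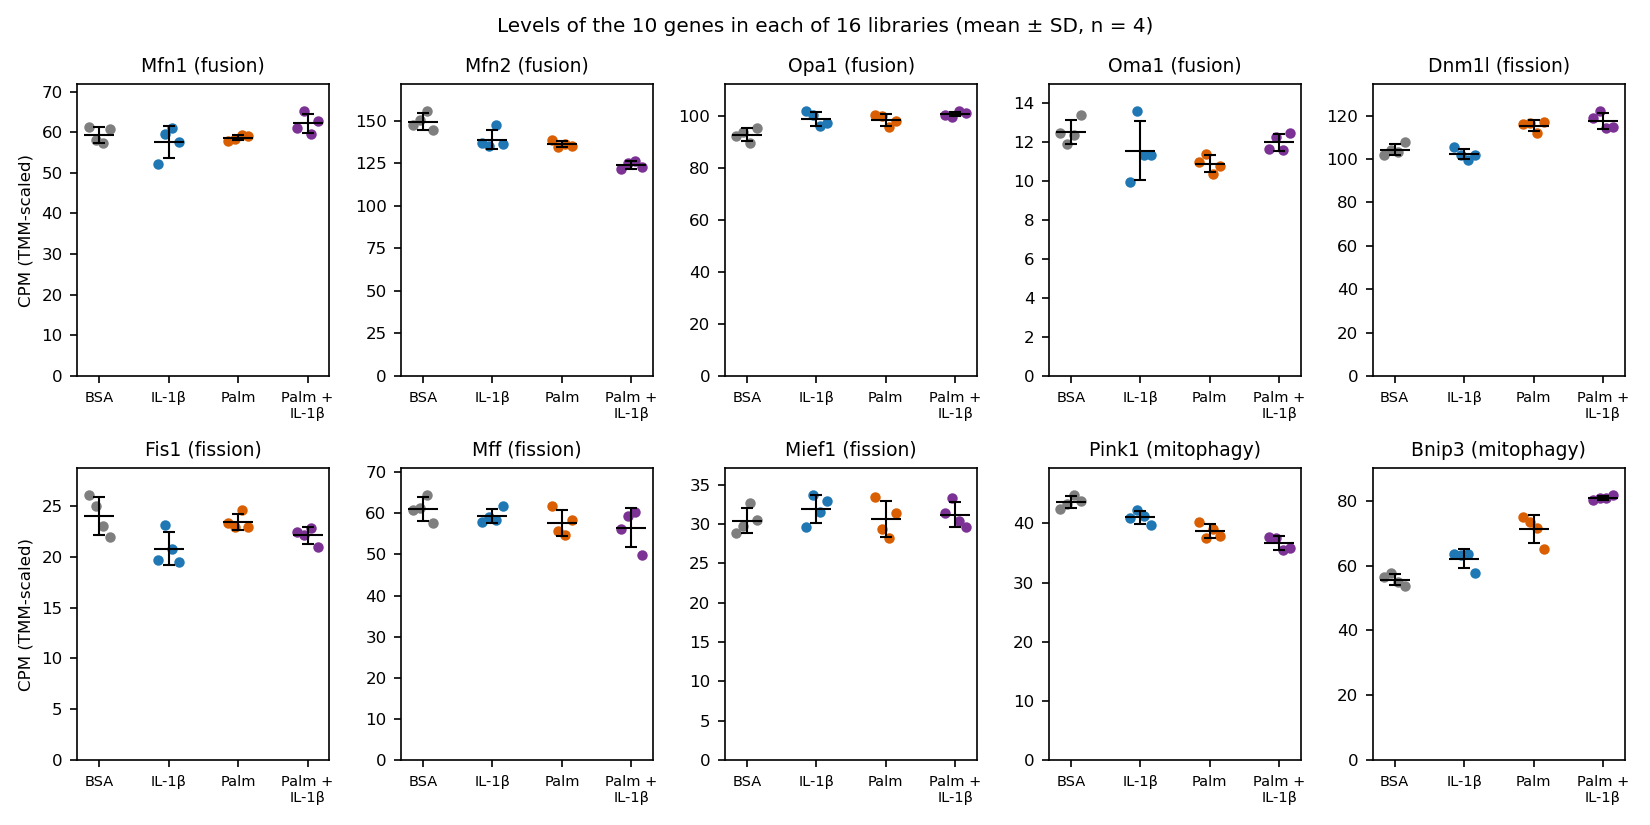
Level of each gene in the 16 libraries, in CPM on TMM-scaled library sizes (vertical axis from 0), by group on the horizontal axis; points are libraries, and horizontal marks with bars are the mean ± SD of 4. Bnip3 climbs from 53.8 to 57.7 CPM in BSA to 80.1 to 81.8 CPM in palmitate + IL-1β, and Mfn2 and Pink1 descend. All treated groups overlap BSA for Mfn1, Fis1, Mff and Mief1.

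Palmitate alone changed 5 of the 10 genes: Bnip3 and Dnm1l rose, and Pink1, Mfn2 and Oma1 fell (quasi-likelihood test of edgeR, Benjamini-Hochberg adjusted p under 0.05 over all genes tested). Across all genes tested, 37.3% were called, 19.8% higher and 17.5% lower, and the 5 of 10 has to be read against that share. The libraries of the groups did not overlap for 6 of the 10, the 5 called and Opa1, against 36.0% of all genes tested. The changes were small: the median absolute log2 fold change of the 10 was 0.11, beside 0.19 over all genes. Palmitate + IL-1β likewise changed 5 of the 10 against BSA, with Bnip3, Dnm1l and Opa1 higher and Mfn2 and Pink1 lower. The background was 47.3% called, 24.8% higher and 22.5% lower, and 41.5% without overlap beside 5 of the 10. The median absolute change was 0.12 for the 10 genes and 0.24 for all. IL-1β alone changed 2 of the 10, Bnip3 upward and Fis1 downward, where 15.1% of all genes were called, 10.1% higher and 4.97% lower.

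**Figure D2:**
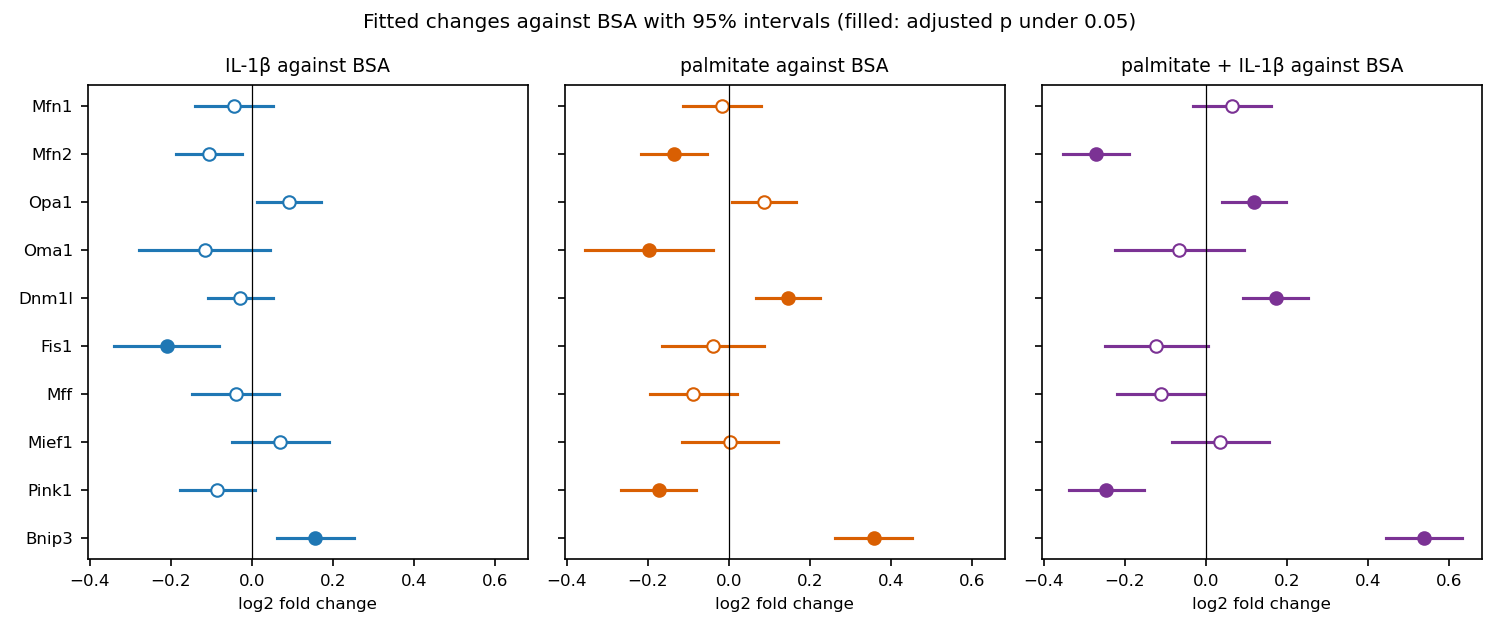
Fitted log2 fold change of each gene (points) with its 95% interval (lines) for IL-1β, palmitate and palmitate + IL-1β, each against BSA; filled points had an adjusted p under 0.05. Bnip3 lies farthest to the right in all 3 panels, at 0.16, 0.36 and 0.54, and Mfn2 farthest to the left under palmitate + IL-1β, at -0.27.

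Bnip3, an outer-membrane mitophagy receptor that is induced by hypoxia, showed the largest change of the 10. Its levels were 56.4, 57.7, 54.9 and 53.8 CPM in BSA, 63.7, 63.4, 63.6 and 57.7 in IL-1β, 75, 73.5, 71.6 and 65.2 with palmitate and 80.1, 80.9, 80.9 and 81.8 with palmitate + IL-1β. Every palmitate library was above every BSA and every IL-1β library, every palmitate + IL-1β library was above all others, and IL-1β library 8 reached down to the top of the BSA range. The mean rose by 28.1% under palmitate (log2 fold change 0.36, SE 0.046, adjusted p = 1.6e-07 by edgeR) and by 45.3% under palmitate + IL-1β (0.54, SE 0.046, adjusted p = 2.06e-11). An exact two-sided permutation test of the mean CPM, 4 libraries against 4, gave p = 0.0286 for both, the smallest value that its 70 divisions allow. Under IL-1β alone the log2 fold change was 0.16 (95% interval 0.06 to 0.25, adjusted p = 0.0201 by edgeR), and the exact permutation test gave p = 0.0571. That call did not hold when BSA library 4 or any of IL-1β libraries 5, 6 and 7 was left out, with values of 0.14 to 0.15, while without the low library 8 it was 0.19. Upper-quartile normalization also ended it, at 0.11, as did leaving out the expression filter, at 0.14.

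The combined treatment also exceeded each agent alone for Bnip3. Against IL-1β it was higher by 0.38 (adjusted p = 5.52e-08 by edgeR), and against palmitate by 0.18 (adjusted p = 0.00788 by edgeR), the latter call being lost without palmitate library 12, at 0.14. Of the 3647 bases of its main transcript, 29.2% matched 29 genes at other places at 95% identity or more. Reads that fit several places equally are not counted by HTSeq, so the level of Bnip3 may be understated. The copies Gm9419 and Gm6532 had at most 3 and 7 counts in any library and Gm16439 at most 33, beside 1392 to 6666 for Bnip3.

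Pink1, the kinase that accumulates on depolarized mitochondria and marks them for removal, moved the other way. Its levels were 42.4, 43.3, 44.8 and 43.7 CPM in BSA, 40.8, 42.3, 41.3 and 39.6 in IL-1β, 40.3, 37.5, 39.1 and 37.9 with palmitate and 37.8, 37.6, 35.5 and 35.9 with palmitate + IL-1β. All libraries of the other 3 groups were below the lowest BSA library, those of IL-1β narrowly. Pink1 fell under palmitate (log2 fold change -0.17, SE 0.045, adjusted p = 0.0028 by edgeR) and under palmitate + IL-1β (-0.25, SE 0.045, adjusted p = 3.63e-05). Under IL-1β alone its log2 fold change was -0.08 (95% interval -0.18 to 0.01, adjusted p = 0.235 by edgeR), and upper-quartile normalization brought it past the threshold at -0.13. Palmitate added to IL-1β also lowered it (-0.16, adjusted p = 0.00612 by edgeR). Of its main transcript, 43.3% is shared with genes that overlap its position, chiefly Ddost, on the opposite strand. The counts of Ddost, an oligosaccharyltransferase subunit, also fell, by 0.13 on the log2 scale under palmitate and by 0.20 under palmitate + IL-1β. Ddost had 2181 to 9523 counts per library, against 829 to 3403 for Pink1. The table is described as counted by strand, which would keep the genes apart only if the libraries kept the strand. The labels and the study's methods differ on how the libraries were prepared. The part of Ddost reads in the Pink1 values was not tested, and the same limit holds for Mfn1 and Dnm1l below.

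Within a library, the count ratio of Bnip3 to Pink1 needs no scaling between libraries. It was 1.28 ± 0.0599 in BSA, 1.51 ± 0.0461 in IL-1β, 1.84 ± 0.0982 with palmitate and 2.21 ± 0.0841 with palmitate + IL-1β (SD, n = 4). The ranges of the 4 groups did not overlap, at 1.23 to 1.33, 1.45 to 1.56, 1.72 to 1.96 and 2.12 to 2.28. The pair was picked after its values were seen, so no test is given. The ratio shows an unequal change of the 2 RNAs and not which of them moved.

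Mfn2, the outer-membrane mitofusin that also tethers mitochondria to the endoplasmic reticulum, was lower in both palmitate groups. Its levels were 147, 151, 156 and 144 CPM in BSA, 137, 135, 147 and 137 in IL-1β, 139, 135, 136 and 135 with palmitate and 122, 125, 127 and 123 with palmitate + IL-1β. Palmitate + IL-1β libraries lay below all others, palmitate libraries below all BSA libraries, and IL-1β library 7 lay within the BSA range. Mfn2 fell by 8.92% in the mean under palmitate (log2 fold change -0.13, SE 0.040, adjusted p = 0.00725 by edgeR) and fell by 17.1% under palmitate + IL-1β (-0.27, SE 0.040, adjusted p = 1.09e-06). For IL-1β the value was -0.11 (95% interval -0.19 to -0.02, adjusted p = 0.0725 by edgeR). Without IL-1β library 7 it was -0.14 and passed the threshold. It also passed with DESeq2, with upper-quartile normalization and with at least 10 counts in every library, at -0.15 to -0.11. Palmitate + IL-1β was lower than IL-1β (-0.16, adjusted p = 0.00144 by edgeR) and lower than palmitate (-0.14, adjusted p = 0.0255 by edgeR). The latter call was lost on leaving out any 1 of palmitate libraries 9 to 12 or palmitate + IL-1β libraries 13 and 16, with values of -0.14 to -0.13.

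Mfn1, the other mitofusin, was not called in any comparison. It stood at 61.3, 58.2, 57.3 and 60.8 CPM in BSA, 52.3, 59.5, 61.1 and 57.5 in IL-1β, 58.0, 58.4, 59.4 and 59.0 with palmitate and 61.1, 65.2, 59.6 and 62.8 with palmitate + IL-1β, with overlap between each group and BSA. Its log2 fold change under palmitate was -0.02 (95% interval -0.11 to 0.08) and under palmitate + IL-1β 0.07 (-0.03 to 0.16). The nearest to a call was palmitate + IL-1β against IL-1β, at 0.11 (adjusted p = 0.0723 by edgeR), which passed the threshold at 0.13 without palmitate + IL-1β library 15. Mfn1 shares 56.3% of its main transcript with overlapping genes, chiefly Gnb4 on the opposite strand, whose counts rose by 0.69 under palmitate. The count ratio of Mfn2 to Mfn1 was 2.52 ± 0.161 in BSA, 2.42 ± 0.146 in IL-1β, 2.32 ± 0.0499 with palmitate and 2.00 ± 0.0904 with palmitate + IL-1β (SD, n = 4). The palmitate + IL-1β range, 1.92 to 2.12, lay below those of the other 3 groups, and this pair was likewise chosen after the values were seen.

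Opa1, the dynamin-like GTPase of the inner membrane, lay slightly above BSA in all treated libraries. It measured 92.5, 94.0, 89.8 and 95.5 CPM in BSA, 102, 101, 96.2 and 97.6 in IL-1β, 101, 100, 95.8 and 98.1 with palmitate and 101, 99.8, 102 and 101 with palmitate + IL-1β. The gap to BSA was under 1 CPM for IL-1β and for palmitate. The rise passed the test for palmitate + IL-1β (log2 fold change 0.12, SE 0.039, adjusted p = 0.012 by edgeR). It was lost without BSA library 1, at 0.10, with upper-quartile normalization, at 0.04, and without the expression filter, at 0.09. Under palmitate the value was 0.09 (95% interval 0.01 to 0.16, adjusted p = 0.083 by edgeR) and under IL-1β 0.09 (0.01 to 0.17, adjusted p = 0.114).

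Oma1, the stress-activated protease of the inner membrane, had the lowest CPM of the 10. Levels were 12.5, 11.9, 12.4 and 13.4 CPM in BSA, 9.94, 13.6, 11.3 and 11.4 in IL-1β, 11.0, 11.4, 10.4 and 10.8 with palmitate and 11.6, 12.3, 11.6 and 12.5 with palmitate + IL-1β. Palmitate libraries were below both BSA and palmitate + IL-1β libraries, and IL-1β libraries 5 and 6 spanned the whole range. Oma1 fell under palmitate (log2 fold change -0.20, SE 0.078, adjusted p = 0.0456 by edgeR), a call near the threshold. It was lost without any 1 of BSA libraries 1, 3 and 4 or palmitate libraries 9, 11 and 12, at -0.21 to -0.16, and without the expression filter, at -0.21. Under palmitate + IL-1β it was -0.07 (95% interval -0.22 to 0.09).

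Dnm1l, which encodes the fission dynamin Drp1, rose with palmitate whether or not IL-1β was present. It stood at 102, 104, 103 and 108 CPM in BSA, 105, 102, 99.5 and 102 in IL-1β, 116, 116, 112 and 117 with palmitate and 119, 122, 114 and 115 with palmitate + IL-1β. The 8 libraries with palmitate were all above the 8 without it. The log2 fold change was 0.15 under palmitate (SE 0.039, adjusted p = 0.00342 by edgeR), 0.17 under palmitate + IL-1β (adjusted p = 0.000479) and 0.20 for palmitate + IL-1β against IL-1β (adjusted p = 0.000126). Under IL-1β alone it was -0.03 (95% interval -0.11 to 0.05), and adding IL-1β to palmitate gave 0.03 (-0.05 to 0.11). Upper-quartile normalization ended the call for palmitate against BSA, at 0.08. Overlapping genes, mainly Yars2 on the opposite strand, share 68.7% of the main Dnm1l transcript, and Yars2 counts rose by 0.38 under palmitate and 0.39 under palmitate + IL-1β. Yars2 had 143 to 673 counts per library, against 2387 to 10560 for Dnm1l.

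The count ratio of Dnm1l to Mfn2, a fission gene over a fusion gene, was 0.698 ± 0.0343 in BSA, 0.737 ± 0.0422 in IL-1β, 0.847 ± 0.0223 with palmitate and 0.948 ± 0.0356 with palmitate + IL-1β (SD, n = 4). Palmitate and palmitate + IL-1β libraries did not overlap each other or the groups without palmitate, which overlapped each other. This pair, too, was chosen after the values were seen, and it does not stand for all fission and fusion genes. Under palmitate + IL-1β the fusion gene Opa1 was higher (0.12), and the fission genes Fis1 (-0.12) and Mff (-0.11) were not called.

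**Figure D3:**
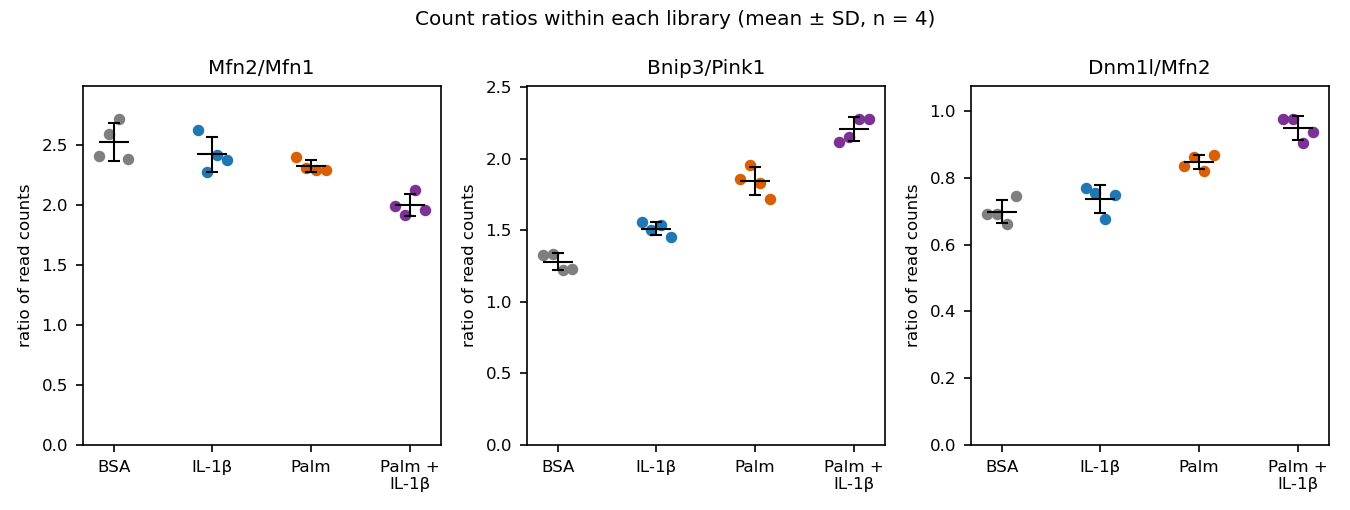
Ratios of raw read counts within each library (vertical axes from 0) by group, for Mfn2 over Mfn1, Bnip3 over Pink1 and Dnm1l over Mfn2; points are libraries, and marks with bars are the mean ± SD of 4. Bnip3 over Pink1 steps up from 1.28 to 2.21 without overlap between groups, and Mfn2 over Mfn1 is lowest in palmitate + IL-1β.

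The adaptors that bring Drp1 to the outer membrane did not follow Dnm1l. Fis1 was 26.1, 25.0, 23.0 and 22 CPM in BSA, 19.7, 23.1, 20.8 and 19.5 in IL-1β, 23.3, 22.9, 24.6 and 22.9 with palmitate and 22.4, 22.2, 22.9 and 20.9 with palmitate + IL-1β. IL-1β libraries were mostly low, although library 6 lay inside the BSA range. Fis1 fell under IL-1β (log2 fold change -0.21, SE 0.063, adjusted p = 0.0205 by edgeR) and was higher in palmitate than in IL-1β (0.17, adjusted p = 0.0376). The exact permutation test gave p = 0.0857 for both of these. The first call was lost without any 1 of BSA libraries 1 and 2 and IL-1β libraries 5 and 8, at -0.20 to -0.17, and the second without any 1 of 6 libraries (IL-1β 5, 7 and 8, palmitate 9, 10 and 11), at 0.14 to 0.18. The second was also lost with upper-quartile normalization, at 0.15, and without the expression filter, at 0.17. Under palmitate + IL-1β Fis1 gave -0.12 (adjusted p = 0.107 by edgeR), and -0.16 past the threshold without BSA library 4. It also passed with upper-quartile normalization and with at least 10 counts in every library, at -0.20 to -0.15.

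Mff ranged from 57.6 to 64.4 CPM in BSA, 58.0 to 61.8 in IL-1β, 54.6 to 61.7 with palmitate and 49.9 to 60.3 with palmitate + IL-1β, and the groups overlapped. It was not called, but its value for palmitate + IL-1β, -0.11 (adjusted p = 0.0831 by edgeR), passed the threshold under 4 of 7 alternative settings, at -0.19 to -0.13, and without BSA library 4 or palmitate + IL-1β library 14 or 15, at -0.15 to -0.14. Under palmitate Mff was at -0.09 (adjusted p = 0.207 by edgeR), and upper-quartile normalization brought it past the threshold at -0.16. Mief1 ranged from 28.9 to 32.7 CPM in BSA, 29.6 to 33.7 in IL-1β, 28.3 to 33.4 with palmitate and 29.6 to 33.3 with palmitate + IL-1β. Against BSA, its fitted log2 changes were 0.00 (95% interval -0.12 to 0.12) under palmitate, 0.07 (-0.05 to 0.19) under IL-1β and 0.04 (-0.08 to 0.16) under palmitate + IL-1β, so differences beyond about 0.2 in either direction lay outside these intervals.

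The remaining comparisons set the treated groups against each other, and they share libraries with those above. Palmitate + IL-1β against IL-1β called 4 of the 10, with Bnip3 and Dnm1l higher and Mfn2 and Pink1 lower, where 35.0% of all genes were called (18.9% higher, 16.1% lower). Palmitate + IL-1β against palmitate called Bnip3 higher and Mfn2 lower, 2 of the 10, against 9.81% of all genes (5.71% higher, 4.1% lower). Palmitate against IL-1β called Bnip3, Dnm1l and Fis1 higher, 3 of the 10, against 31.6% of all genes (16.5% higher, 15.2% lower).

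Whether the agents acted independently was asked with an interaction contrast, the departure of palmitate + IL-1β from the sum of the single changes on the log2 scale. None of the 10 was called by edgeR (1 at an unadjusted p under 0.05, Oma1) and none by DESeq2, where 1.99% of all genes tested were called by edgeR. Bnip3 came to 0.51 as a sum and 0.54 as measured (interaction 0.02, 95% interval -0.11 to 0.16). Mfn2 came to -0.24 and -0.27 (interaction -0.03, interval -0.14 to 0.08), and Pink1 to -0.26 and -0.25 (0.01, interval -0.12 to 0.14). Oma1 departed most, with a sum of -0.31 and a measured change of -0.07 (0.25, interval 0.02 to 0.47, adjusted p = 0.414 by edgeR). For Bnip3, Mfn2 and Pink1, departures of up to 0.16 in size lay within the intervals.

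The genes around these 10 were counted in lists that contain none of them. Of 15 tested genes of fusion and inner-membrane shaping, palmitate raised 4 and lowered none, beside the 37.3% of all genes called. Afg3l2, a matrix-side protease, went from 41.9 ± 2.35 to 53.1 ± 1.19 CPM (log2 fold change 0.34), Slc25a46 from 98.8 ± 1.91 to 114 ± 5.15 CPM (0.20), Phb, a scaffold of the inner membrane, from 32.5 ± 1.87 to 37.2 ± 2.46 CPM (0.19, adjusted p = 0.0116 by edgeR), and Immt was the other, at 0.24. Palmitate + IL-1β raised 3 and lowered none, beside 47.3% of all genes, with Afg3l2 at 0.57, Slc25a46 at 0.33 and Immt, the core of the cristae junction complex, at 0.25. IL-1β raised Slc25a46 (0.15) and lowered Chchd3 (-0.21), another part of that complex, which was 2 of 15 beside 15.1% of all genes. The list's median was 0.03 under palmitate and -0.01 under palmitate + IL-1β, near that of all genes, -0.003 and 0.002.

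Of 13 further fission genes, palmitate raised 4 and lowered 2, which was 6 of 13 beside the 37.3% of all genes. Inf2, a formin that builds actin at sites of division, rose from 129 ± 5.76 to 246 ± 10.0 CPM (log2 fold change 0.93, adjusted p = 5.46e-18 by edgeR), a larger change than that of any of the 10. Tbc1d15, a partner of Fis1, rose by 0.32 and Spire1, an actin nucleator, by 0.27. The others called, named after their values were seen, were Senp5 (0.14), Gdap1 (-0.43, SE 0.16) and Mtfp1 (-1.11, SE 0.40, adjusted p = 0.0284 by edgeR). Gdap1 and Mtfp1 had the largest SEs of the list. For each of these 2, the libraries overlapped those of BSA or the average log2 CPM was under 1. With palmitate + IL-1β, 4 rose (Inf2 at 0.84, Tbc1d15 at 0.45, Spire1 at 0.32 and Senp5 at 0.17). Another 3 fell (Mtfr1l at -0.27, Gdap1 at -0.60, SE 0.17, and Mtfp1 at -1.69, SE 0.44), which made 7 of 13 beside 47.3% of all genes. IL-1β changed Tbc1d15 (0.13) and Mtfr1l (-0.14), 2 of 13 beside 15.1%. The list's median was 0.03 under palmitate, 0.05 under IL-1β and 0.07 under palmitate + IL-1β.

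Among 25 tested mitophagy receptors and adaptors, palmitate raised 9 and lowered 10, which was 19 of 25 beside the 37.3% of all genes. The adaptors that link ubiquitin to the autophagosome were among those that rose: Sqstm1 (p62) by 1.22, Optn by 0.46 from 35.0 ± 2.11 to 48.0 ± 2.38 CPM, and Tax1bp1 by 0.39. Those that fell included Nipsnap1 (-0.61), a mitochondrial matrix protein, and Gabarap (-0.20) and Gabarapl2 (-0.18) of the family conjugated to autophagosome membranes. The list's median was -0.01. Bnip3l, the closest relative of Bnip3, was at 0.12 (adjusted p = 0.0256 by edgeR) and Fundc1, another receptor, at -0.16 (adjusted p = 0.0453), while Gabarapl1 of the Gabarap family rose (0.25). These 3 were named after their values were seen. IL-1β raised 4, with Sqstm1 at 0.64, Optn at 0.26, Tbk1, the kinase of those adaptors, at 0.24 and Ulk1 at 0.15, and lowered Gabarap (-0.17), 5 of 25 beside 15.1% of all genes. Palmitate + IL-1β raised 10 and lowered 9, 19 of 25 beside 47.3% of all genes, with Sqstm1 at 1.61, Tbk1 at 0.61, Optn at 0.59, Nipsnap1 at -0.53, Gabarap at -0.41 and Nipsnap2 at -0.33.

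Bnip3 was also set beside 18 hypoxia-response targets. Palmitate raised 16 and lowered none, where 19.8% of all genes were called higher, with a median log2 fold change of 0.43. The list ran widely, from -0.04 (Mxi1) to 1.77 (Egln3), and Bnip3 was at 0.36. Egln3, the oxygen-sensing prolyl hydroxylase, rose by 1.77 from 6.25 ± 0.436 to 21.3 ± 1.29 CPM, Adm, a vasoactive peptide, by 1.31 and Slc2a1, a glucose transporter, by 1.14. IL-1β raised 5 (Adm by 0.68, Egln3 by 0.54, Ero1a by 0.39, Vegfa by 0.35 and Bhlhe40 by 0.23) with a median of -0.004, where 10.1% of all genes were called higher. Bnip3 was at 0.16 under IL-1β. Palmitate + IL-1β raised 14, most of all Adm (1.69), Egln3 (1.62) and Slc2a1 (1.11), and lowered 1, Mxi1 (-0.17). The median was 0.42, where 24.8% of all genes were called higher and 22.5% lower, and Bnip3 was at 0.54. Against palmitate, palmitate + IL-1β raised 3 of the 18 and lowered 3, with a median of -0.06, while Bnip3 was higher by 0.18. In that comparison 5.71% of all genes were called higher and 4.1% lower. In the same 300-base windows, ACGTG was in 13 of these 18 promoters, 72.2%, and in that of Bnip3, against 25.7% of promoters tested. It was also in 8 of 15 promoters of the fusion and inner-membrane list, 53.3%. GCGTG was in 10 of the 18, 55.6%, against 48.7% of promoters tested. Whether a hypoxia factor acts on any of these promoters was not tested.

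**Figure D4:**
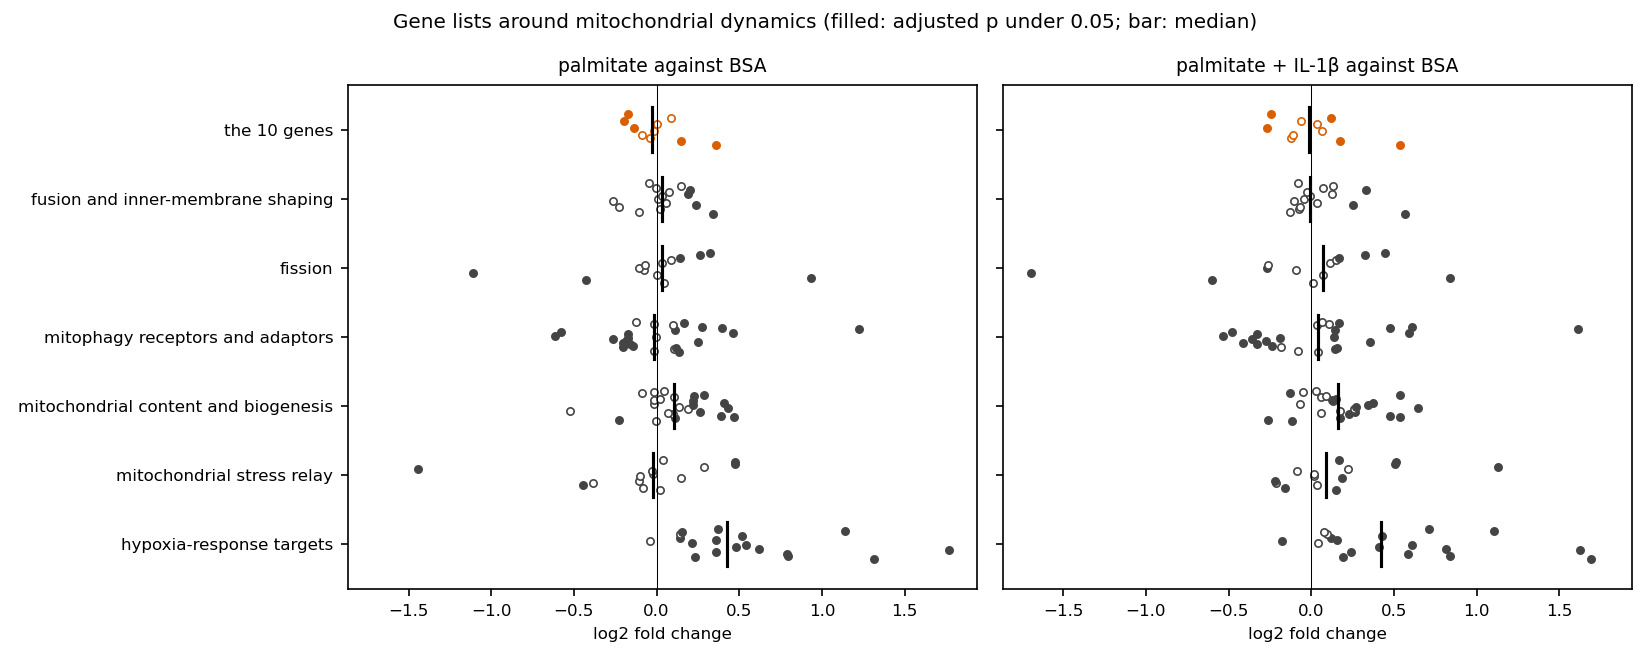
Log2 fold changes of the 10 genes (top row, orange) and of 6 related gene lists under palmitate (left) and palmitate + IL-1β (right), each against BSA; each point is a gene, filled where the adjusted p was under 0.05, and black bars are medians. The hypoxia-response targets are shifted to the right, with medians of 0.43 and 0.42, while the medians of the 10 genes are -0.03 and -0.01. Of these 10, Bnip3 lies at 0.36 and 0.54.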

How the data were processed

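Bulk RNA of 16 mGF libraries in 4 groups was measured. Library preparation is given as a stranded kit for total RNA in the labels and as oligo(dT)-primed cDNA in the study's methods. The authors trimmed reads with Trimmomatic 0.39, aligned them with STAR 2.7.10a to GRCm39 (GENCODE vM33) and counted them by strand with HTSeq 2.0.9; the deposited values are raw counts per gene. The 5 summary entries that name no gene, 18.3% to 21.4% of each library, were left out. Counts were tested with edgeR 4.0.16 (R 4.3.3): filterByExpr (minimum count 10, minimum total 15), TMM normalization with factors of 0.970 to 1.04, robust glmQLFit and glmQLFTest on all 16 libraries together, each group with its own mean, Benjamini-Hochberg adjustment over 16306 genes and a threshold of 0.05. The common biological coefficient of variation was 6.08%. Standard errors were derived from the F statistic. Replicates differed by more than sampling noise (chi-square per degree of freedom 2.63 to 18.5 over 24 pairs), so each counted once. A floor of 3 counts was 0.0331 to 0.146 CPM per library, which covers counting error only.

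The 10 genes and all lists were chosen with earlier results of these data known. Named beyond the 10 were, per list and comparison with BSA, the 3 largest rises and falls among called genes without overlap and with an average log2 CPM of at least 1, and the gene most alike each of the 10; a few other list genes were named after their values were seen, to complete short counts. Alternatives were DESeq2 1.42.0, other normalizations and filters, omission of ribosomal RNA and mitochondrially encoded genes, fits restricted to the 8 libraries of a comparison, and omission of each library in turn. The edgeR and DESeq2 tests were also run on simulated counts, for palmitate against BSA only and with the same spread for every gene. That outcome is not reported here, and the other comparisons were not simulated. Positions and promoter sequences came from the GRCm39 genome with GENCODE vM39, where 56323 of 56941 genes matched. Where Aldoa and Ddit3 had more than 1 entry, the lowest Ensembl number was used. The study's protein and metabolic assays were not analysed here.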

Additional observations from a re-analysis of the deposited data

Results flagged for a closer look

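For each of the 10 genes in each of the 4 groups, the highest and the lowest library were compared with the other 3 by Dixon's ratio, in 40 sets of 4 libraries. Chance marks about 1 in 20 such sets, and 2 of the 40 stood out, both in IL-1β. Mfn2 was highest in IL-1β library 7, at 147 CPM beside 135, 137 and 137 in the others, and its log2 fold change against BSA was -0.11 with this library and -0.14 without it. Bnip3 was lowest in IL-1β library 8, at 57.7 CPM beside 63.4, 63.6 and 63.7, and its log2 fold change against BSA was 0.16 with it and 0.19 without it.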

How the results depend on the processing

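Counts of changed genes among the 10 stayed within 1.5 times their value in all comparisons and alternative settings with 1 exception: without the expression filter, IL-1β against BSA gave 1 in place of 2. Leaving out single libraries gave 0 to 2 for that comparison (0 without IL-1β library 5) and 0 to 2 for palmitate + IL-1β against palmitate (0 without palmitate library 12). Over the log2 fold changes of single genes, 449 values under alternative settings kept direction and side of the threshold, 8 fell short of it, 11 passed it and 12 changed sign, and on leaving out a library the numbers were 578, 28, 6 and 28. None of the sign changes touched a called value.

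Mief1 under palmitate, at 0.00, became -0.0668 with upper-quartile normalization, -0.00269 with RLE size factors, -0.0119 without the filter, -0.0166 with at least 10 counts in every library, -0.00903 without mitochondrially encoded and ribosomal genes, -0.00593 with only the libraries compared and -0.0029 with DESeq2. Upper-quartile normalization also turned Mfn1 (-0.014) and Mief1 (-0.0426) in palmitate + IL-1β against BSA, Opa1 against IL-1β (-0.00564), and the interactions of Mfn2 (0.00685) and Mief1 (0.00111). Ranges over single libraries left out were, against BSA, -0.0375 to 0.0368 for Mief1 under palmitate and -0.00585 to 0.0712 under palmitate + IL-1β. For palmitate + IL-1β they were -0.0112 to 0.138 for Oma1 against IL-1β, and against palmitate -0.0558 to 0.0304 for Mff and -0.00177 to 0.0748 for Mief1. For palmitate against IL-1β they were -0.0172 to 0.0509 for Mfn1, -0.0265 to 0.00848 for Opa1 and -0.144 to 0.00486 for Oma1. For the interaction they were -0.0157 to 0.0703 for Mff, -0.0698 to 0.00478 for Mief1, -0.00563 to 0.0300 for Pink1 and -0.0144 to 0.0475 for Bnip3. The cause was not tested.

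Upper-quartile normalization shifted the median of all genes by -0.07 under palmitate and -0.08 under palmitate + IL-1β and moved the share of higher calls from 53.1% to 37.1% and from 52.4% to 38.7%, and for IL-1β from 67.1% to 43.5%. No paired analysis was possible because library numbers are not shared between groups.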

Other observations

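Of 24 genes of mitochondrial content and biogenesis, palmitate raised 10 and lowered 1, beside 37.3% of all genes called (median log2 fold change 0.11, beside -0.003 for all genes), and palmitate + IL-1β raised 12 and lowered 3, beside 47.3% (median 0.16). Hspd1, the matrix chaperonin, went from 159 ± 5.5 to 220 ± 5.6 CPM under palmitate (0.47), Pprc1, a coactivator, from 33.4 ± 0.303 to 45.0 ± 1.27 CPM (0.43) and Tfb2m, a mitochondrial transcription factor, from 24 ± 1.09 to 31.9 ± 1.57 CPM (0.41), whereas Esrra, a nuclear receptor, fell (-0.23, adjusted p = 0.0279 by edgeR). Under palmitate + IL-1β, Pprc1 (0.65), Hspd1 (0.54) and Twnk, the mitochondrial helicase, (0.53) rose, while Esrra (-0.26), the outer-membrane channel Vdac1 (-0.13) and citrate synthase Cs (-0.11) fell. IL-1β raised 2 and lowered none, Pprc1 (0.32) and Hspd1 (0.21), beside 15.1% of all genes. Mitochondrially encoded genes took 12.2% to 13.4% of counts in BSA, 11.4% to 14.0% in IL-1β, 11.9% to 13.2% in palmitate and 10.7% to 11.5% in palmitate + IL-1β. Omitting them together with ribosomal RNA genes lost none of the calls against BSA among the 10 genes and added Mff under palmitate + IL-1β, at -0.13. Their separate part was not tested.

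Oma1 is known to signal mitochondrial stress through Dele1 to the kinase Eif2ak1 and Atf4. A list of 14 genes held steps of this relay after Oma1 and other mitochondrial stress genes, among them the proteases Htra2 and Lonp1. Of the 14, palmitate raised these 2 proteases (0.48 and 0.47) and lowered 2, Chac1 (-0.44) and Fgf21 (-1.44, SE 0.33). This was 4 of 14 beside 37.3% of all genes. Dele1 was at -0.02, Eif2ak1 at -0.03 and Atf4 at 0.02, none of them called. These steps after Oma1, and Fgf21 and Gdf15, were named after their values were seen. Fgf21 and Gdf15 missed the overlap or level rule set for named genes. IL-1β raised 3, Gdf15 (1.12), Fgf21 (0.97) and Chac1 (0.28), and lowered Atf5 (-0.15), 4 of 14 beside 15.1%. Palmitate + IL-1β raised 6, with Gdf15 at 1.13 (SE 0.21), Lonp1 and Htra2 both at 0.51 and Atf4 at 0.15, and lowered Chchd2 (-0.22) and Atf5 (-0.16), 8 of 14 beside 47.3%. The list's median was -0.02, 0.05 and 0.09 in the 3 comparisons.

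The gene most alike each of the 10 was taken as the highest Pearson r of log2 CPM over the 16 libraries, among 11826 genes. It was Ankmy2 for Pink1 (r = 0.975), Ttc39c for Bnip3 (0.972), Lmna for Mfn2 (0.954), Icam5 for Dnm1l (0.943), Gm13230 for Opa1 (0.890), Gm4613 for Fis1 (0.885), Pramel12 for Mff (0.856), Acrbp for Mfn1 (0.822), Mzt1 for Mief1 (0.802) and Oma1's was Pou6f1 (0.756). The libraries share their treatment groups, so these values describe a common pattern over groups as much as over libraries.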
